A study of Mus musculus with 335 samples.

Results

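The Mesenchymal cells of the mouse aorta-gonad-mesonephros (AGM) region are single cells taken ventral to the aorta that carried the receptor Pdgfrb and lacked the receptor Ngfr on their surface. All cells whose cell type label reads Mesenchymal were taken, which gave 88 cells beside the 247 cells of the other groups, and expression was compared between them cell by cell. They came from Wild-type embryos at E11.5, whose tissue was dissociated with collagenase and sorted straight into lysis buffer for Smart-seq2, a full-length single-cell RNA method. The other 3 groups, also Wild-type at E11.5, were 65 EPCR+CD45+ cells in which the haematopoietic stem cells lie (HSC), and 93 dorsal and 89 ventral Ngfr+Pdgfrb- cells (Dorsal and Ventral). Each group was 1 sequencing pool and no animal or litter is named, so the Mesenchymal cells count as 1 sample. No test was made, and cell group and sequencing pool cannot be told apart. A difference between groups can therefore hold a difference between pools or their libraries. Which embryos the cells came from is not labelled, so spread between cells can hold spread between embryos.

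Mesenchyme is loose embryonic connective tissue that lays down collagen-rich matrix and gives rise to fibroblasts, pericytes and smooth muscle. Beneath the aorta it lies next to the endothelium from which the first haematopoietic stem cells bud, and it releases factors such as Cxcl12 and Bmp4 that act on blood-forming cells. Pdgfrb and Pdgfra are the receptors for platelet-derived growth factors, Pdgfrb being typical of perivascular cells and Pdgfra of fibroblast-like cells.

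The cells held between 126979 and 6200800 estimated counts, with a median of 505916 and 68560800 in all, and the deepest cell gave 9.04% of the pool. A median of 6760 genes was detected per cell, with a range of 5451 to 8017. Levels are counts per 1000000 counts of a cell or pool (CPM). They are not corrected for transcript length, so they are compared for 1 gene between cells or pools and not between genes. Shares of positive cells count cells with at least 5 counts after each cell was randomly thinned to 200000 counts, which left out 6 shallower cells and kept 82. Limits on summed levels (exact Poisson) and on shares (exact Clopper-Pearson) are 95% limits and cover counting error only. Well index pairs were shared with 60 of 65 HSC, 85 of 93 Dorsal and 81 of 89 Ventral cells, in separate pools. The correlation of thinned log2 counts between any 2 Mesenchymal cells had a median of 0.494 and a highest value of 0.601, well short of identity.

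The label fitted its markers, but the cells did not carry them to the same extent. All 5 markers, Pdgfrb, Pdgfra, Col1a1, Acta2 and Rgs5, were at least 2-fold above the highest other pool, which held for 5.05% of the 13446 genes compared. For Pdgfrb this gives no separate support, since Dorsal and Ventral cells were sorted as lacking the protein. Of the 82 thinned cells, 15 were positive for all 5 markers, 29 for 4, 25 for 3, 12 for 2 and 1 for 1. Col1a1, the main chain of type I collagen (GRCm38 chr11:94936224-94953042), ran from 18.1 CPM in the lowest cell through a median of 491 to 2143 in the highest, and 98.8% of cells were positive. Its share was 10.5% in Ventral, 4.3% in Dorsal and 0% in HSC cells. It was the marker nearest to uniform presence.

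Pdgfrb, the gene of the sorted protein, ranged from 0 through a median of 72.1 to 505.01 CPM, and 73.2% of cells were positive (62.2 to 82.4). It was at 0 counts in 9 cells, although every cell had been sorted for the protein. Summed over the pool it stood at 127 CPM, against 1.58 in Ventral, 2.05 in Dorsal and 0.0315 in HSC cells. Pdgfra (chr5:75152292-75198215) ranged from 0 through 101.9 to 609 CPM with 79.3% of cells positive, and 45 of 82 cells were positive for both receptors, 20 for Pdgfra alone, 15 for Pdgfrb alone and 2 for neither. Over the 88 cells the levels of the 2 receptors were not closely related (Spearman's rho -0.12). Ngfr, against which the cells were sorted, was positive in 8 of 82 cells with a highest cell of 184 CPM, and summed to 7.32 CPM against 281 in Dorsal and 90.9 in Ventral.

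Of the 5 markers, Acta2 and Rgs5 varied most between cells for their level: their squared coefficient of variation exceeded that of genes of like mean by 4.67 and 3.16 on the log2 scale, followed by Col1a1 (1.28), Pdgfrb (0.58) and Pdgfra (0.37). Acta2, smooth muscle actin (chr19:34241090-34255590), ran from 0 through a median of 13 to 12497 CPM. In 26 cells it was at 1000 CPM or more, in 7 between 100 and 1000, in 16 between 10 and 100, and in 39 under 10. With cells weighted equally, the 9 highest cells held 61.4% of its CPM summed over cells. Its share of positive cells was 42.7% (31.8 to 54.1), and 82.9% when 1 count was enough. Its pooled level moved from 1578 CPM in all cells to 971 CPM in the 45 cells with an odd first index and 2087 CPM in the 43 with an even one.

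Rgs5, a regulator of G protein signalling that marks pericytes (chr1:169655501-169695813), ran from 0 through 91.4 to 2356 CPM. It was at 1000 CPM or more in 8 cells, between 100 and 1000 in 36, and under 10 in 31, and 61% of cells were positive. Acta2 and Rgs5 overlapped in part: 26 cells were positive for both, 9 for Acta2 alone, 24 for Rgs5 alone and 23 for neither, with a rho of 0.37. A cell low in Acta2 was therefore not always low in Rgs5.

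**Figure D1:**
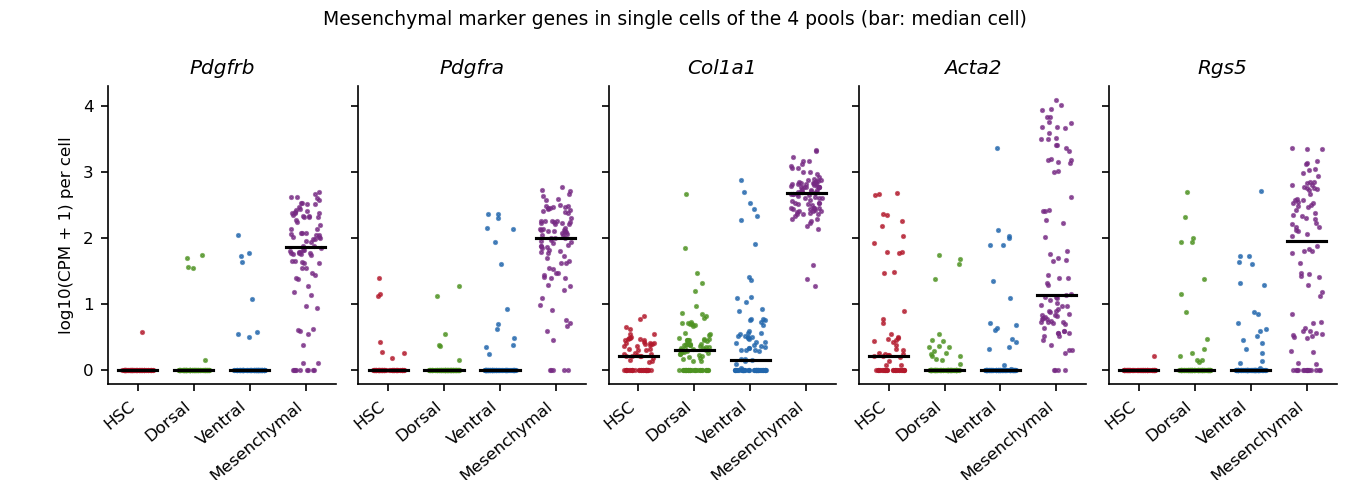
Level of each of the 5 marker genes (vertical axis, log10 of CPM + 1) in every cell of the HSC, Dorsal, Ventral and Mesenchymal pools; each point is a cell and the bar is the median cell. In the Mesenchymal cells Col1a1 forms a single band with a median of 491 CPM, while Acta2 splits between 26 cells at 1000 CPM or more and 39 under 10 CPM.

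Markers of most other cell types were seldom found together in the same cell. No Mesenchymal cell was positive for 3 or more markers of neural crest or glia, of sympathoadrenal cells, endothelium, macrophages, erythroid cells or epithelium, where 5 unthinned counts made a cell positive. Sox10, the neural crest factor, was positive in 0 of 82 cells (exact upper limit 4.4%; 3 cells would make 3.66%), and Cdh5 of endothelium and Ptprc of blood cells were likewise at 0 of 82. Haematopoietic markers reached 3 in 3 cells, where Runx1 was positive in 9 of 82 cells. Emcn, an endothelial sialomucin, was positive in 18 of 82 cells with a highest cell of 509 CPM, while Kdr, the receptor for vascular endothelial growth factor, was positive in 4. The Pax8 gene of the mesonephric list was positive in 97.6% of Mesenchymal cells and in 93 to 100% of the other pools, so it was not used to tell cells apart. Markers of sclerotome or cartilage reached 3 in 26 cells, against 9 Ventral, 2 Dorsal and 0 HSC cells. Foxc2 was positive in 62 of 82 cells, Sox9 in 39, Pax9 in 6 and Pax1 in 5.

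Genes of the contractile apparatus were mostly higher here than in the other pools and uneven between cells. Of the 22 listed genes in the table, 15 were at least 2-fold higher than in any other pool and 0 were 2-fold lower, with a median log2 fold of 1.48 (median over all genes 0). Spread between cells was measured as the squared coefficient of variation of thinned counts, set against genes of like mean; a gene at 2 times that trend or more (a log2 excess of 1) is called variable here. By that rule 11 of 20 contractile genes were variable, beside 9.08% of the 9128 genes measured. Among all genes compared, 5.05% were at least 2-fold higher than in any other pool. The variable ones were Acta2 (excess 4.67), Tagln (4.06), Actg2 (3.62), Myl9 (2.72), Cnn1, Cnn2, Tpm1, Myocd, Cald1, Tagln2 and Flna.

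The contractile genes differed in how many cells expressed them. Tpm1, a tropomyosin that stabilises actin filaments, was positive in 82 of 82 cells, with a lowest cell of 30.7, a median of 768 and a highest of 4357 CPM. Myl9, the regulatory light chain of smooth muscle myosin, was positive in 95.1% of cells and ran from 0 through 300 to 2901 CPM. Tagln, an actin-binding protein of early smooth muscle, ran from 0 through 65.3 to 4411 CPM and was positive in 61%. Cnn1, calponin of differentiated smooth muscle, was positive in 29.3%, with a median of 0 and a highest cell of 753 CPM. Myh11, the heavy chain of mature smooth muscle myosin, was positive in 7 of 82 cells and at 0 counts in 74 of 88. The shares thus ran from every cell for Tpm1 to few cells for Myh11. As levels are not corrected for transcript length, these shares give no order of maturation between genes.

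Across the 88 cells the genes most like Acta2 were Cnn1 (rho 0.72), Mcam (0.67), Tpm2 (0.67), Parm1 (0.66) and Myl9 (0.64). Actg2, the enteric smooth muscle actin, was positive in 19 cells, and 19 of those 19 were Acta2-positive. For scale, the middle pair of all pairs among 8376 genes had a rho of 0.01 and the highest 0.1% of pairs began at 0.39; the cells share 1 library and differ in depth, which these values hold too. The 19 contractile genes that could be paired had a median rho of 0.18. The genes least like Acta2 were the retinoid binding protein gene Crabp2 (rho -0.49), the transcription factor gene Tef (-0.46), Hmga2 of embryonic chromatin (-0.43) and the vascular ligand gene Angpt1 (-0.43). Angpt1 and Acta2 were both present in 4 of 82 cells, Angpt1 alone in 21 and Acta2 alone in 31.

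Because several contractile genes varied with Acta2, promoters of the list are shown where they hold a CArG box. This is the site bound by serum response factor, which drives many smooth muscle genes. Whether such sites bear on the variation was not tested. RefSeq promoter windows of GRCm38.p6, from 250 bases before to 50 bases after a start site, were given for 17 of the 22 genes. Both strands were searched, though the motif reads the same on each. A box was found in 3 of 19 windows, those of Cnn2, Myl9 and Srf, beside 535 of all 32851 windows (1.63%). For the other genes the letters were not in this window, which says nothing of sites elsewhere. The stretches below are given 5′ to 3′ on the gene's own strand, with 30 bases on each side of the box and the box in capitals. They lie at chr10:79988514-79988583 (plus strand), chr2:156775273-156775342 (plus strand) and chr17:46556185-46556274 (minus strand).
Cnn2: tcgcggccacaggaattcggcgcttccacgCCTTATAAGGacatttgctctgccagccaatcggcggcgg
Myl9: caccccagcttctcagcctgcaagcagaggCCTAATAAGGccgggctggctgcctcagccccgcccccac
Srf: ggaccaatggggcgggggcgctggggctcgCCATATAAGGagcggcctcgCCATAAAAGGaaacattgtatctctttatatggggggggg
The box began 56 bases before the start in Cnn2 and 161 in Myl9, and the pair in Srf, the gene of the factor itself, began 82 and 62 bases before. A match describes the letters and not a bound site. Myl9 and Cnn2 were variable genes with an excess of 2.72 and 1.74.

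Pericyte genes followed the contractile genes in part. Of the 9 listed genes in the table, 5 were at least 2-fold higher than in any other pool (Rgs5, Kcnj8, Abcc9, Cspg4 and Notch3) and 4 of 7 were variable. The shares among all genes were 5.05% and 9.08%. Notch3, the Notch receptor of mural cells, was among the most even genes for its level (excess -0.97): it ran from 0 through 43.7 to 190 CPM and was positive in 69.5% of cells. Mcam, an adhesion molecule of the vessel wall, was uneven (excess 1.89), positive in 39% and higher in the Dorsal pool (215 CPM) than here (74.1). Kcnj8, a potassium channel gene of mature pericytes, was positive in 9 of 82 cells. The averaged scores of the contractile and pericyte lists had a rho of 0.51 across cells, the pericyte score resting on 4 genes. The pericyte list was not the closest. The contractile score had a rho of 0.62 with matrix glycoproteins and proteoglycans, 0.58 with adhesion genes and 0.54 with collagens.

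Extracellular matrix genes ran from present in every cell to present in few. Of these, 10 of 21 collagen and 25 of 43 other matrix genes were positive in at least 50% of cells, and 3 and 11 in at least 90%. Over all 13448 genes, 3664 were positive in at least 50% of cells and 1020 in at least 90%. Of 21 collagen genes, 13 were at least 2-fold above every other pool and 9 of 19 were variable. Of 43 matrix glycoprotein and proteoglycan genes, 19 were higher and 16 of 41 variable, and in both lists 0 were lower. The shares among all genes were 5.05% higher, 9.08% variable and 4.62% lower. Col3a1, fibrillar collagen of soft tissue, was positive in 82 of 82 cells at 88.2 to 2997 CPM, with a median of 701.7. Gpc3, a cell-surface proteoglycan, was also in 82 of 82 cells at 322 to 3829 CPM, and its excess of 0.40 left it close to the trend. Sparc, a collagen-binding glycoprotein, was in 82 of 82 cells at 104 to 4300 CPM. Col1a1 tracked Col3a1 (rho 0.51) and Sparc (0.52), and the basement membrane pair Col4a1 and Col4a2 tracked each other (0.62).

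Other matrix genes were positive in fewer cells. Tnc, tenascin C of remodelling tissue, ran from 0 through 0.311 to 1636 CPM and was positive in 31.7% of cells. Col12a1, a collagen that decorates fibrils, ran from 0 through 26.5 to 940 CPM, was positive in 51.2%, and followed Acta2 with a rho of 0.56. Col2a1, the cartilage collagen, was positive in 35.4% with a highest cell of 1034 CPM, and Col6a3 in 12.2%. Fbln5, an organiser of elastic fibres, was one of the genes that stood furthest above the other pools (log2 fold 6.15), and it was positive in 51.2% of cells.

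By the fold of pooled sums over the highest other pool, the leading gene was Ddr2, a receptor that binds fibrillar collagen (log2 fold 6.82). With cells weighted equally its log2 fold was 5.58, beside 5.88 for Fbln5 and 5.58 for Ntrk2. Ddr2 was positive in 89% of Mesenchymal cells and ran from 0 through 173 to 1107 CPM, while it summed to 1.46 CPM or less in each other pool; the deepest cell held 36.1% of its counts. Actc1, an actin of the heart and early muscle, followed Fbln5 (6.03) but was positive in 24.4% (29.5% unthinned). Ntrk2, a neurotrophin receptor (5.90), was positive in 69.5%, and Cd248, endosialin of stromal and perivascular cells (5.63), in 82.9%. The rest of the leading 20 were Cnn1, Pdgfrb, Col1a1, Rgs5, Acta2, Cyp1b1, Clstn2, Actg2, Egfr, Islr, Twist2, Foxd1, Loxl1, Efemp1 and Snai2, with log2 folds down to 4.36. Among them, Pdgfrb was the gene of the sorted protein. Genes at least 2-fold below every other pool were 4.62% of those compared.

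Mesenchymal transcription factors ranged from nearly universal to rare. Of 60 in the table, 22 were at least 2-fold above every other pool, 3 were below (Gata2, Eya1 and Mef2c), and 13 of 42 were variable. The shares among all genes were 5.05%, 4.62% and 9.08%. Prrx1, a homeobox factor of limb and body-wall mesenchyme, was positive in 89% of cells and ran from 0 through 319 to 1240 CPM. Foxp2, a forkhead factor, was positive in 92.7%, and Sox11, a factor of immature cells, in 97.6%. Zfhx4, a zinc finger homeobox factor, was uneven (excess 2.80), running from 0 through 62.2 to 2214 CPM. Alx1, a homeobox factor of craniofacial mesenchyme, was positive in 14.6%. The list had a median pairwise rho of 0.02, close to that of all pairs.

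Within these factors Gata6 and Twist2 ran against each other by degree, with many cells positive for both. This pair and the genes set beside it were chosen after their values were seen. Gata6, a zinc finger factor of visceral mesoderm, ran from 0 through 61 to 444 CPM and was positive in 62.2% of cells. Twist2, a basic helix-loop-helix factor of dermal and skeletal mesenchyme, ran from 0 through 26.4 to 342 CPM and was positive in 54.9%, a share that was 31.7% when 10 counts were asked for. Their rho was -0.50: 29 cells were positive for Gata6 alone, 23 for Twist2 alone, 22 for both and 8 for neither. Twist2 was the gene least like Gata6 among those paired.

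Further genes lined up on the Gata6 side. Gata4, its close relative, was positive in 16 of 82 cells, and 16 of those 16 were also positive for Gata6 and for the growth factor gene Ptn. Among all 82 cells Gata6 was positive in 62.2% and Ptn in 84.1%. Gata6 varied across cells with Nrg1, a ligand of ErbB receptors (rho 0.49), and with Ptn (0.39), and ran against Rspo3, an enhancer of Wnt signalling (-0.47). Gata4 and Col12a1 were not positive together in any of the 82 cells (rho -0.56). Acta2 itself was little related to Gata6 (rho -0.11) or Twist2 (0.14). The 2 patterns were not wholly apart, since Col12a1, which ran against Gata4, followed Acta2 (0.56).

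**Figure D2:**
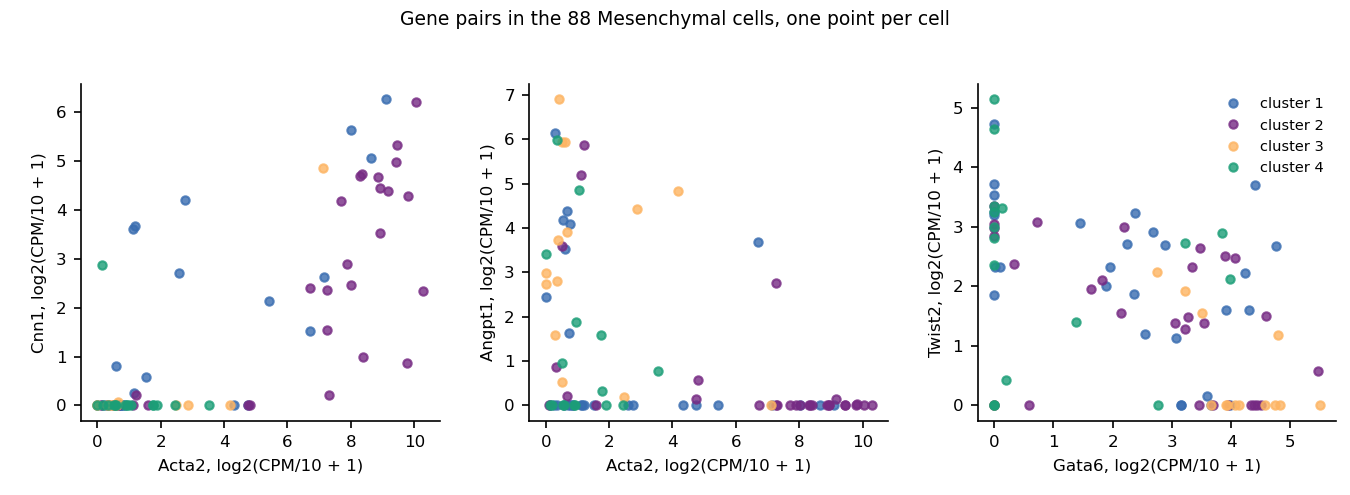
Levels of 3 gene pairs (log2 of CPM/10 + 1 on both axes) in the 88 Mesenchymal cells, 1 point per cell, coloured by the 4 clusters of the group. Acta2 and Cnn1 vary together (rho 0.72), while Acta2 with Angpt1 (-0.43) and Gata6 with Twist2 (-0.50) run against each other. After thinning, 22 of 82 cells were positive for both Gata6 and Twist2.

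Ligands known to act on haematopoietic stem cells ranged from universal to rare. Of 26 in the table, 8 were at least 2-fold higher than in every other pool, 0 were lower, and 9 of 16 were variable. The shares among all genes were 5.05%, 4.62% and 9.08%. Each of the 82 cells was positive for 6 to 14 of the 26, with a median of 9. Igf2, a fetal growth factor, and Mdk, a heparin-binding cytokine, were positive in 82 of 82 cells. Mdk was the steadier, running from 187 through 689 to 1530 CPM (excess -0.35), and Igf2 ran from 184 through 846 to 2446 CPM. Cxcl12, the chemokine that holds stem cells through the receptor Cxcr4 (chr6:117168535-117181367), was positive in 98.8% of cells and ran from 18.3 through 1055 to 4748 CPM.

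Ptn, pleiotrophin, which sustains stem cells in culture (chr6:36714929-36810220), spread far more: from 0.751 through 625 to 4644 CPM, with 34 cells at 1000 CPM or more and 13 under 10 CPM. Its levels ran against those of Igf2 (rho -0.48) and of the Notch ligand gene Jag1 (-0.47), and with those of the Wnt antagonist gene Sfrp1 (0.48). Bmp4, the ventral morphogen, was positive in 79.3% and ran from 0 through 82.7 to 947 CPM. Tgfb2 was positive in 73.2%.

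Other ligands were found in fewer cells. Igf1, an insulin-like growth factor, was positive in 42.7% and ran from 0 through 6.36 to 2697 CPM, and its pooled level of 332 CPM was 112 over the odd-index cells, 516.99 over the even-index cells and 183 with cells weighted equally. Jag1 was positive in 35.4% (57.3% if 1 count was enough), Vcam1, an adhesion molecule for blood cells, in 34.1%, and Wnt5a in 28%. Angpt1, the ligand of the receptor Tek, was positive in 30.5% and ran from 0 through a median of 0 to 1182 CPM, with a pooled level of 102 CPM over odd-index cells and 32.4 over even-index cells. In the HSC pool 86.2% of cells were positive for Angpt1. Kitl, stem cell factor, was positive in 4 of 82 cells (4.88%, limits 1.34 to 12) and summed to 3.40 CPM, near the 2.59 of Ventral and 2.41 of Dorsal. Tgfb1 and Ccl2 were positive in 0 of 82 (exact upper limit 4.4%; 3 cells would make 3.66%). Across all pairs of these ligands the median rho was -0.01, with pairs on both sides: Cxcl12 and Igf2 had a rho of 0.36, and Ptn and Igf2 one of -0.48.

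**Figure D3:**
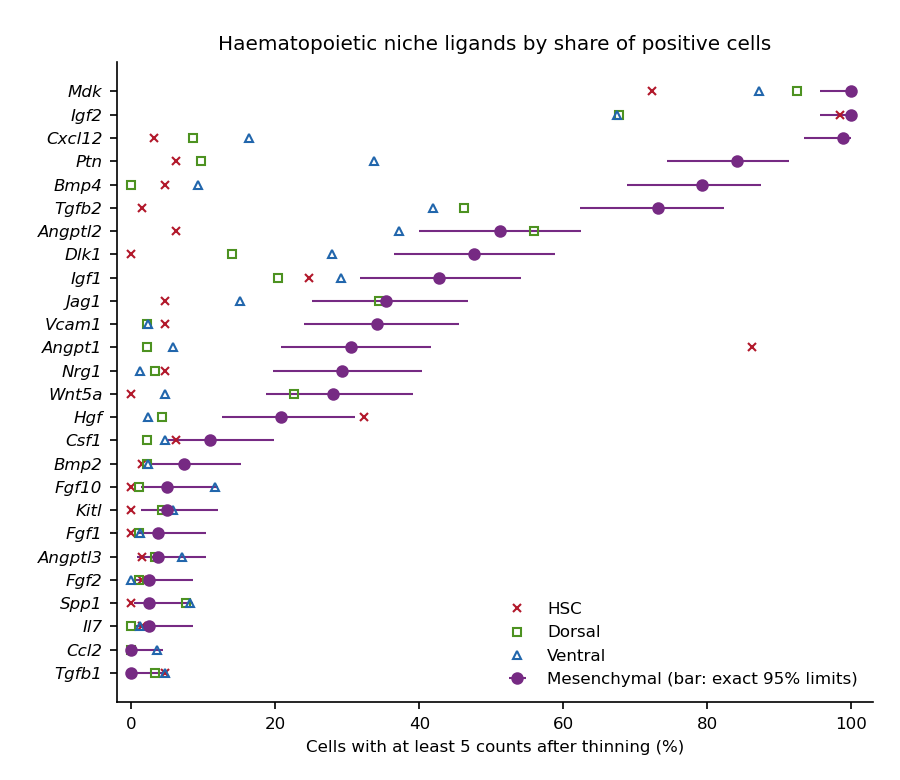
Share of cells positive (horizontal axis, percent with at least 5 counts after thinning) for each listed ligand in the Mesenchymal cells, with exact 95% limits as bars, and in the other 3 pools as open symbols or crosses. Igf2 and Mdk reach 100% and Cxcl12 98.8% of Mesenchymal cells, while Kitl lies at 4.88% and Angpt1, at 30.5%, lies below its 86.2% in HSC cells.

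Among the signalling pathways, 8 of 31 Wnt, 13 of 32 BMP and TGF-beta and 3 of 16 Notch genes were positive in at least 50% of cells. In the Hedgehog list 3 of 11 were, and in the receptor list 12 of 36. Over all genes 3664 of 13448 were, a share near those of the Wnt and Hedgehog lists. In the Wnt list 13 of 31 genes were at least 2-fold above every other pool and 7 of 21 were variable. The shares among all genes were 5.05% and 9.08%. The antagonist gene Sfrp2 was positive in 86.6% of cells and ran from 1.94 through 174 to 2205 CPM (excess 2.55), while the receptor gene Fzd1 was positive in 84.1% with a flat spread (excess -0.13). In the BMP and TGF-beta list 9 of 32 genes were higher and 7 of 22 variable. Fstl1, a secreted BMP-binding protein, was positive in 82 of 82 cells at 87 to 2910 CPM, Id3, a target of BMP signalling, in 82 of 82 at 163 to 3012 CPM, and Bmper, a BMP modulator, in 61%.

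In the Notch list 5 of 16 genes were higher, 2 were lower (Dll1 and Mfng) and 4 of 10 variable. The shares among all genes were 5.05%, 4.62% and 9.08%. Heyl, a Notch target of mural cells, was positive in 24.4% of cells with a highest cell of 411 CPM, and it followed Acta2 (rho 0.53) and Jag1 (0.52) more than the receptor Notch3 (0.21). In the Hedgehog list 2 of 11 genes were higher and 2 of 7 variable. Ptch1, receptor and target of the pathway, was positive in 29.3% and ran from 0 through 0 to 422 CPM, and the effector gene Gli2 in 42.7%. In the receptor list 7 of 36 were higher, 1 (Pdgfb, a ligand on that list) was lower and 12 of 29 variable. Epha7, an ephrin receptor, was positive in 90.2% and ran from 0 through 199.5 to 1110 CPM, and Ednra, the endothelin receptor, was positive in 73.2%.

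Over the whole table, 829 of 9128 genes (9.08%) were variable. Besides contractile genes, the 20 with the largest excess held immediate-early genes (Fos 4.49, Egr1 4.33, Btg2 and Cyr61), the heat shock gene Dnajb1 (4.63), mitotic genes (Ube2c 3.93, Ccnb1, Kpna2 and Tuba1c), retinoid genes (Aldh1a2 3.71 and Crabp1 3.33), the calcium pump gene Atp2b4 (4.13), and Igf1, Rgs5, Ackr3 and Tnc. Hist1h2ap led at 4.78, but histone genes have near-identical copies between which counts may be split, so its value is uncertain. The levels of such genes were concentrated in few cells. Of the CPM summed over equally weighted cells, the 9 highest cells held 88.7% for Actg2, 73.8% for Fos and 43.9% for Crabp1. At the other end, 1020 of 13448 genes were positive in at least 90% of cells and 3664 in at least 50%.

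**Figure D4:**
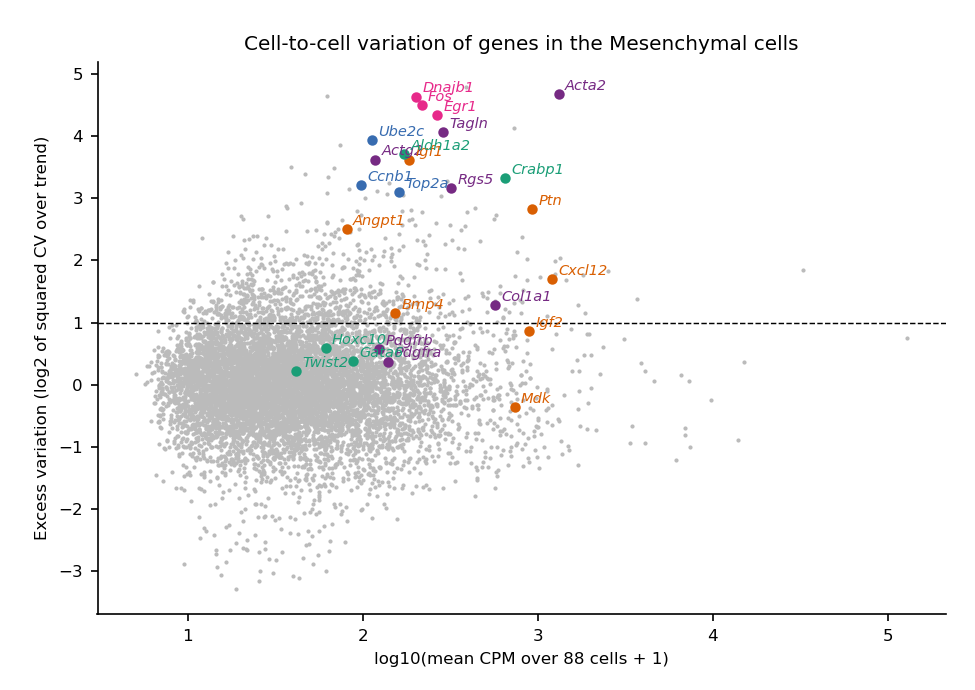
Excess variation of each measured gene (vertical axis, log2 of the squared coefficient of variation over genes of like mean) against its mean level (horizontal axis, log10 of mean CPM + 1) over the Mesenchymal cells, with the dashed line at an excess of 1. Acta2 (4.67), Fos (4.49) and Egr1 (4.33) lie far above the line, and Mdk (-0.35), Pdgfra (0.37) and Hoxc10 (0.59) below it.

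Hox genes, which give cells their position along the body axis, lay near the trend in spread as a list (median excess -0.06), yet some varied with one another. The 23 Hox genes that could be paired had a median rho of 0.04, close to the 0.01 of all pairs. Of 31 in the table, 6 were at least 2-fold above every other pool and 0 of 25 were variable. The shares among all genes were 5.05% and 9.08%, and 0 of 25 is not far from the latter. Each cell was positive for 0 to 13, with a median of 6. Hoxa5 (chr6:52201754-52204587), of an anterior paralogue group, was positive in 51.2% of cells and ran from 0 through 29.1 to 521 CPM. Hoxc10 (chr15:102966796-102971893), of a posterior one, was positive in 46.3% and ran from 0 through 12 to 350 CPM.

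The group 10 genes lie in separate clusters on 3 chromosomes, Hoxa10 at chr6:52231197-52240854 and Hoxd10 at chr2:74691924-74695105, and they were found in the same cells; these Hox comparisons were chosen after their values were seen. Hoxc10 had a rho of 0.73 with Hoxd10 and 0.68 with Hoxa10, and Hoxa10 had 0.61 with Hoxd10. Of 82 cells, 41 were positive for none of the 3, 10 for 1, 14 for 2 and 17 for all 3. Summed over the paralogue group the level was 110 CPM in the Mesenchymal pool, 59.6 in Ventral, 16.6 in Dorsal and 9.75 in HSC.

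The paralogue groups were then taken as an anterior and a posterior block, leaving out groups 6 and 7. Among genes of groups 8 to 11 on different chromosomes, 34 of 35 pairs had a rho above 0, with a median of 0.35. Among groups 2 to 5, 21 of 26 such pairs were above 0, with a median of 0.18 and a lowest of -0.28 for Hoxa2 with Hoxb3. Between these blocks 60 of 73 pairs were below 0, with a median of -0.12 and a lowest of -0.33 for Hoxa4 with Hoxc8. The medians on counts thinned to 1 depth were 0.35, 0.13 and -0.10. Many of the single values are weak, and the genes overlap in their cells: Hoxa5 and Hoxc10 were both positive in 18 of 82 cells. Hoxc10 also followed Mest, an imprinted gene (rho 0.55), and ran against Col1a2 (-0.43), but was little related to Acta2 (-0.19) or Gata6 (-0.13).

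**Figure D5:**
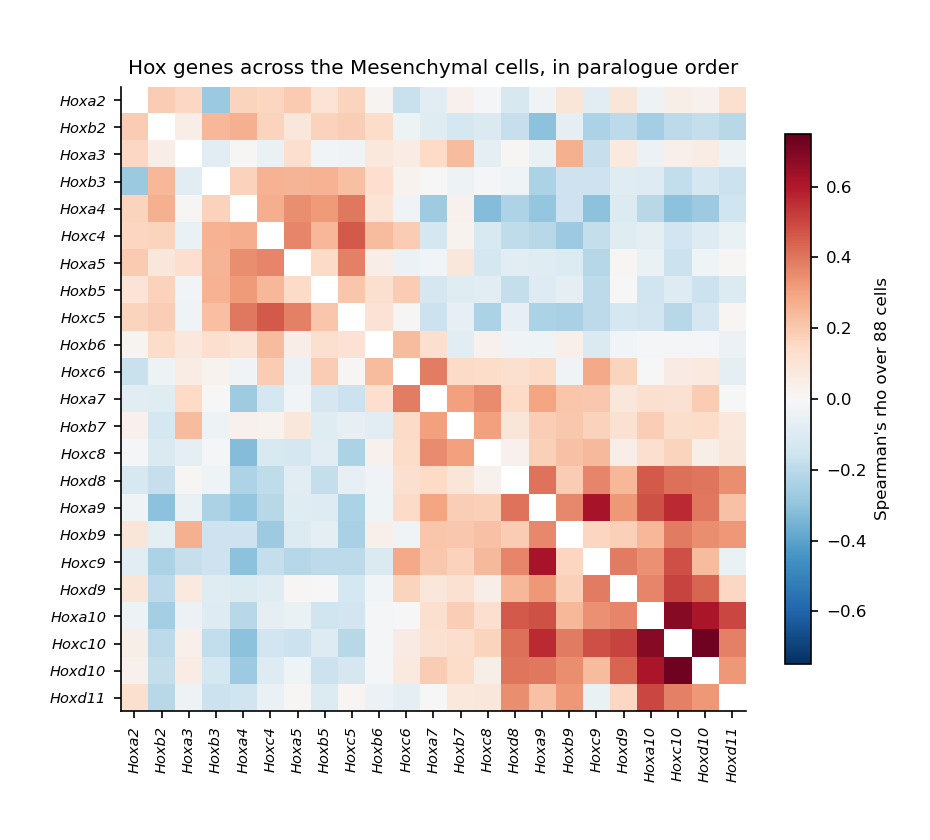
Spearman's rho over the 88 Mesenchymal cells for each pair of Hox genes, ordered by paralogue group along both axes (red above 0, blue below 0). The posterior genes form a red block that reaches 0.73 for Hoxc10 with Hoxd10, and the pairs of anterior with posterior genes are mostly blue, with a median of -0.12 on different chromosomes.

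To see whether these patterns gathered into groups of cells, the cells were clustered into 4 on the 1500 most variable genes, without any gene of the lists or marker sets. The structure was shallow: the first principal component held 3.98% of the variance and the first 10 held 21.7%. Clusters 1 to 4 held 29, 29, 14 and 16 cells, with median counts of 589848, 512827, 447084 and 409944 and median detected genes of 7429, 6780, 6299.5 and 6261.5, so depth moved with the clusters and its part was not tested. Levels below are means over the cells of a cluster, given as descriptions. Counts of list genes highest in a cluster have no share over all genes beside them, so they cannot be set against a background.

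Cluster 1, which held the deepest cell, was led by cell division genes, among them Pbk, Top2a, Ccnb1, Depdc1a, Sgo1, Aurkb, Cdca5, Fbxo5 and Ccnf. All 26 S phase genes and all 27 G2 and mitosis genes with a mean level of 10 CPM or more were highest in it. Mki67, the proliferation antigen, was positive in 70.4% of its thinned cells, against 11.1%, 23.1% and 26.7% in clusters 2, 3 and 4. Col1a1 averaged 418 CPM in it, against 856, 485 and 398 in the others. Mki67 and Acta2 were both positive in 9 of 82 cells and had a rho of -0.14.

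Cluster 2 was smooth muscle-like by the markers used, with Actg2 and Acta2 among its 10 leading genes beside Il13ra1, Angpt2, Gem, Acta1, Ccdc3, Ppm1l, Adamts3 and others. It was highest for 17 of 22 contractile, 8 of 8 pericyte, 13 of 21 collagen and 26 of 42 matrix genes. Acta2 averaged 3374 CPM in it and 538, 120 and 17.6 CPM in clusters 1, 3 and 4, yet its cells ran from 0.827 to 12497 CPM, so the cluster was not made of Acta2-high cells alone. Rgs5 averaged 638 CPM, against 240, 171 and 9.85. Pdgfrb averaged 205 CPM, against 68.3, 155 and 47.2.

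Cluster 3, unnamed, was led by Itga8, Ppm1k, Cntn6, Kcnj2, Grid1, Bank1, Mme, Plekhm3, Pigv and Rtn4ip1, mostly genes of no common role. Gata6 averaged 174 CPM there and 66.9, 97.1 and 27.7 in clusters 1, 2 and 4, and Twist2 averaged 6.93 CPM against 50.5, 28.8 and 74.5. Angpt1 averaged 238 CPM (10 of 13 thinned cells positive), and Sfrp2 750 CPM, each highest there, as were Pdgfra at 227, Ptn at 1415 and Bmp4 at 235 CPM. Stress genes were also highest in it for 12 of 18, with Fos at a mean of 486 but a median of 3.03 CPM.

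Cluster 4, also unnamed, was led by Foxf1 and Ptch1, of the splanchnic mesenchyme set, together with Adamtsl3, Grm8, Tbx1, Vav2, Slc10a7, Dpyd, Rspo2 and Jade1. Ptch1 averaged 137 CPM there (11 of 15 thinned cells positive) against 13.9, 21 and 9.84 in clusters 1 to 3, but Foxf1 was positive in 4 of 15 and Gata6, of the same marker set, was lowest there. The retinoid-binding gene Crabp1 averaged 1128 CPM, the cartilage gene Col2a1 180 CPM and the imprinted gene Plagl1 473 CPM, each highest in this cluster, as were 12 of 25 Hox genes.

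Membership of the clusters shifted with how they were made. The cluster highest in Acta2 held 29 cells, of which 10 were in the cluster highest in Acta2 with 1000 genes, 18 with 3000 genes and 18 by k-means. Adjusted Rand indices against the 4 clusters ran from 0.30 to 0.98 over 8 alternatives. The gene pairs given above do not rest on the clusters.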

How the data were processed

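Every cell was deposited as a sample of its own. The authors deposited estimated counts per gene, made with kallisto 0.43.1 on GRCm38 per the submitters' processing notes, and a log2 table that they had scaled per cell; annotation, filters and size factors are not given in the sources used here. Of 14109 entries, 661 without a gene symbol (2.96% of counts) were left out, and 0 sample columns were unused. CPM, computed here, divide a cell's or pool's count by its total over 13448 genes. The deposited log2 values served 1 alternative.

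The Mesenchymal pool was set against the highest (or lowest) other pool as log2 of (CPM + 1), at 2-fold, for genes whose counts in the pools summed to 100 or more. Variation used counts thinned at random to 200000 per cell and genes positive in 10% of cells. Spearman correlations used log2(CPM/10 + 1) and genes positive in 20% of cells. Clustering used Ward linkage on 10 principal components. Python 3.11.15, numpy 2.4.6, pandas 2.3.3, scipy 1.17.1 and scikit-learn 1.9.0 were used, and the code was tested on simulated data. Doublets were not called, each well having received a single sorted cell. Coordinates are from GENCODE M21 on GRCm38. Dock10 and Cep97 took a median of 14.2% of a cell's counts and were left out of totals in 1 alternative.

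Named are the 5 markers and both sort genes, the 4 highest and 4 most variable members of each list, the 20 genes of largest excess (positive in 20% of cells) and of largest fold (at least 5 unthinned counts in 25%), both required in odd-index and even-index cells, the 10 leading genes of each cluster, and the 5 genes most like Acta2 and Pdgfra; some of these are not reported here. Members of lists or marker sets named beyond this rule, and pairs of genes, were chosen after their values were seen. The group and the lists were chosen with earlier results of these data known.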

Additional observations from a re-analysis of the deposited data

How the results depend on the processing

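Genes positive in at least 50% of cells numbered 3664, and 5795 when 1 thinned count was enough. Variable genes numbered 829. Without the filter on low genes there were 1422 (817 of the 829 among them), and 165 (88 of the 829) by the variance of the authors' log2 values; 4 other settings gave 833 to 918, with 554 (odd-index cells) to 722 (thinned to 310000 counts) of the 829 among them. The cluster highest in Acta2 held 29 cells, 11 with 1000 genes and 18 by k-means. The other alternatives moved these counts by less than 1.5 times: genes higher than in every other pool, 679, ran from 602 to 787, and the contractile median rho, 0.18, from 0.17 to 0.20. Without the deepest cell the pooled level of Crabp1 went from 763 to 453 CPM and that of Mecom from 80.3 to 31.5 CPM. Between odd-index and even-index cells Crabp1 was at 1165 and 425 CPM, Mecom at 151 and 21.1, Fos at 311 and 138, and Aldh1a2 at 65.3 and 151 (171 with cells weighted equally). The deepest cell has an odd first index, so the odd-index levels of Crabp1 and Mecom hold its counts. The cause of these differences was not tested. No paired analysis was possible because each group is 1 pool and the labels carry no replicate numbers. Cells below 200000 counts limit what can be called absent.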

Other observations

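Retinoid genes were uneven between cells, and the pairs given were chosen after their values were seen. Aldh1a2, which makes retinoic acid, was positive in 23.2% of cells and ran from 0 through a median of 0 to 2673 CPM, with 67 of 88 cells under 10 CPM. It followed Stra6, the retinol importer (rho 0.45 over 88 cells). Crabp1, which binds retinoic acid in the cell, was positive in 73.2% and had a rho of -0.20 with Aldh1a2; 13 of the 19 Aldh1a2-positive cells were also Crabp1-positive. The deepest cell held 46% of the Crabp1 counts. Of 17 retinoid genes, 3 were at least 2-fold above every other pool (Cyp26a1, Rarb and Crabp1), beside 5.05% of all genes compared.

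Imprinted growth genes were present in most cells. Of 21 in the table, 17 were positive in at least 50% of cells and 8 in at least 90%, and 4 of 19 were variable. Over all 13448 genes, 3664 and 1020 were positive to these extents, and 9.08% of the genes measured for spread were variable. Peg3 was positive in 82 of 82 cells at 190 to 5605 CPM, with a median of 1850, and Gnas in 82 of 82 at 431 to 4112 CPM. Cdkn1c, an inhibitor of the cell cycle, was positive in 82 of 82 at 47 to 1444 CPM, and summed to 625 CPM here against 3394 in Dorsal and 2256 in Ventral. Igf2r, the receptor that clears Igf2, was uneven (excess 3.05), with a median of 84.2 and a highest cell of 3062 CPM.

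Genes that respond to dissociation were uneven: 12 of 16 were variable, beside 9.08% of all genes. Fos and Egr1 varied together over cells (rho 0.63), with 31 of 82 cells positive for both and 30 for neither. Fos had a rho of 0.09 with Acta2. Of the glycolysis genes 1 of 16 was variable (Ldha, excess 2.31), near the 9.08% of all genes, with a median excess of 0.52 against 0 for all genes. Of 4 Y-linked genes, 53 of 88 cells were positive for 0 and 18 for 2 or more.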
